A study of Mus musculus with 14 samples.

Results

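RANKL-only H3K27ac clusters are stretches of chromatin that ranked among the 500 strongest after the RANKL protocol and not among the 500 strongest in control organoids. To find them, H3K27ac regions separated by gaps of up to 12500 bp were stitched into clusters, and the normalised counts (CPM, reads of a region scaled to 1000000 reads in all regions of that library) were summed over each cluster. The mean of the 3 RANKL libraries and the mean of the 3 control libraries were then ranked. This gave 130 clusters with 579 regions, out of 35609 clusters with 55050 regions. For comparison, 370 clusters with 2289 regions were in both top 500s, and 130 clusters with 639 regions were in the control top 500 only. The choice used the H3K27ac values of all 6 libraries, so the H3K27ac levels and ratios of these clusters are given as descriptions, with no test.

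The study used organoids grown from the small intestine of 1 female Lgr5GFPDTR/+ mouse, whose genotype is shared by both groups. RANKL organoids were kept for 3 days with 3 µM CHIR99021, which activates Wnt signalling, and 1.5 mM valproic acid, which inhibits histone deacetylases, then spent a day in ENR medium and were harvested on day 6 of 100 ng/mL mouse RANKL. Control organoids were grown in ENR medium (EGF at 50 ng/mL, Noggin and R-spondin 1), so the contrast is between the whole protocol and ENR medium, and RANKL cannot be told apart from the pretreatment. H3K27ac and the transcription factor ONECUT2 were each profiled by ChIPmentation (chromatin immunoprecipitation with adapters inserted by Tn5 transposase) in 3 RANKL and 3 control libraries, from 3 independent differentiation experiments of the one line. Spread between libraries is therefore spread between experiments and not between animals.

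Acetylation of lysine 27 on histone H3 (H3K27ac) marks active promoters and enhancers, and long runs of strongly acetylated enhancers are often found at genes that define a cell's identity. RANKL is the cytokine that induces microfold (M) cells, which sample luminal antigen and pass it to the lymphoid follicles below the epithelium. Its receptor RANK acts through TRAF adaptors on NF-κB and AP-1 transcription factors. ONECUT2 is a CUT-homeodomain transcription factor known from liver, neural and intestinal development. As bulk chromatin was profiled, a larger share of cells with a mark and more mark per cell cannot be told apart.

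The deposited regions carry coordinates and no sequence, so the sequences shown here are promoter windows of RefSeq (GRCm38.p6, the mm10 build of the regions), the 250 bases before an annotated transcript start. Of the 192 protein-coding genes placed at the clusters, 82 had such a window inside a member region, with 101 windows in 61 clusters. A window is shown for 4 genes on which the descriptions below turn, chosen after their values were seen, with matches to searched motifs in capitals. Each is written 5′ to 3′ on the strand of its gene.

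Ccdc33 (chr9:58102226-58102475, minus strand): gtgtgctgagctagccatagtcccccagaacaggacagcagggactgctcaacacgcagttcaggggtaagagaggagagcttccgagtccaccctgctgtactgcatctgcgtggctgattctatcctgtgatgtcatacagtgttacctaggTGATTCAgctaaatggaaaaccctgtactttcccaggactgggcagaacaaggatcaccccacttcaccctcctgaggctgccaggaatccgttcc
Nfkbia (chr12:55492648-55492897, minus strand): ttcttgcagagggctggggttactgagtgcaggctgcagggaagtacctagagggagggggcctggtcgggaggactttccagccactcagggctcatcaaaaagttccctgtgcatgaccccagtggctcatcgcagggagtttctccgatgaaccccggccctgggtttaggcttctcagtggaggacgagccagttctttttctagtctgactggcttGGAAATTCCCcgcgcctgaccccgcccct
Itgav (chr2:83724147-83724396, plus strand): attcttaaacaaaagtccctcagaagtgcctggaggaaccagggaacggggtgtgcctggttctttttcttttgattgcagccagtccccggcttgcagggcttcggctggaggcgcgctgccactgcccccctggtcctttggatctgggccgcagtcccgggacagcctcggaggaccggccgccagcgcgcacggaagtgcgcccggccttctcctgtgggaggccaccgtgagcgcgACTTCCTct
Mmp7 (chr9:7691840-7692089, plus strand): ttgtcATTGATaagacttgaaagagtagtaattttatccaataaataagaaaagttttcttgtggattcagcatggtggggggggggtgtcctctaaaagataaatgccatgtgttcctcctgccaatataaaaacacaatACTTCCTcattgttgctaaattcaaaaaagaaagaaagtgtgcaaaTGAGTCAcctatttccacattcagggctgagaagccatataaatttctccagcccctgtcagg

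The capitals in the Ccdc33 window are an AP-1 motif, those in the Nfkbia window an NF-κB motif 29 bases before the start, and those in the Itgav window an ETS motif. The Mmp7 window holds, in this order, an ONECUT motif, an ETS motif and an AP-1 motif. A second Mmp7 window in the same region (chr9:7692091-7692340), not shown, has no match to any searched motif. The H3K27ac region around the Ccdc33 window had 130 ± 11.7 CPM with RANKL and 4.17 ± 1.43 CPM in control, and that around the Nfkbia window had 199 ± 12.6 CPM with RANKL and 57.3 ± 1.72 CPM in control (mean ± SD, n = 3 each, here and below). The region around the Itgav window had 60.5 ± 4.05 CPM with RANKL and 35.7 ± 0.855 CPM in control, and that around the Mmp7 window had 42.2 ± 3.13 CPM with RANKL and 22.2 ± 1.97 CPM in control. Both strands were searched for exact letters. An ONECUT motif (ATCGAT or ATTGAT) was in 8 of the 101 windows (7.92%), against 3.99% of the 10598 windows of protein-coding genes inside any H3K27ac region and 6.61% of all 21262 such windows. An NF-κB motif (GGG, any 2 bases, TTTCC) was in 5 windows (4.95%), against 1.50% and 1.43%. An AP-1 motif (TGANTCA) was in 9 windows (8.91%), against 4.10% and 6.13%. An ETS motif (AGGAAGT) was in 10 windows (9.90%), against 7.01% and 7.32%. An HNF4 motif (CAAAGTCCA) was in 0 windows, against 0.425% and 0.390%. Windows of 1 gene or of neighbouring genes can overlap each other. Matches of different motifs overlapped in 0 of these windows and in 33 of all windows. A match is a match of letters, not a measured site.

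"Strong only after RANKL" holds for the rank and not for the presence of the mark. The clusters' median level was 203 CPM with RANKL and 155 CPM in control, and the RANKL-to-control ratio had a median of 1.38, with quartiles of 1.22 and 1.64 and a range of 1.01 to 19.2. In control, 56 of the 130 clusters ranked 750 or better, 87 ranked 1000 or better and 112 ranked 2000 or better, with a median control rank of 792. The ratio was at least 1.5 in 52 clusters, at least 2 in 21, at least 3 in 12 and at least 4 in 5. Most of the 130 were thus also strongly acetylated in control organoids. The 130 clusters held 2.77% of the reads in regions with RANKL, against 1.86% in control.

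**Figure D1:**
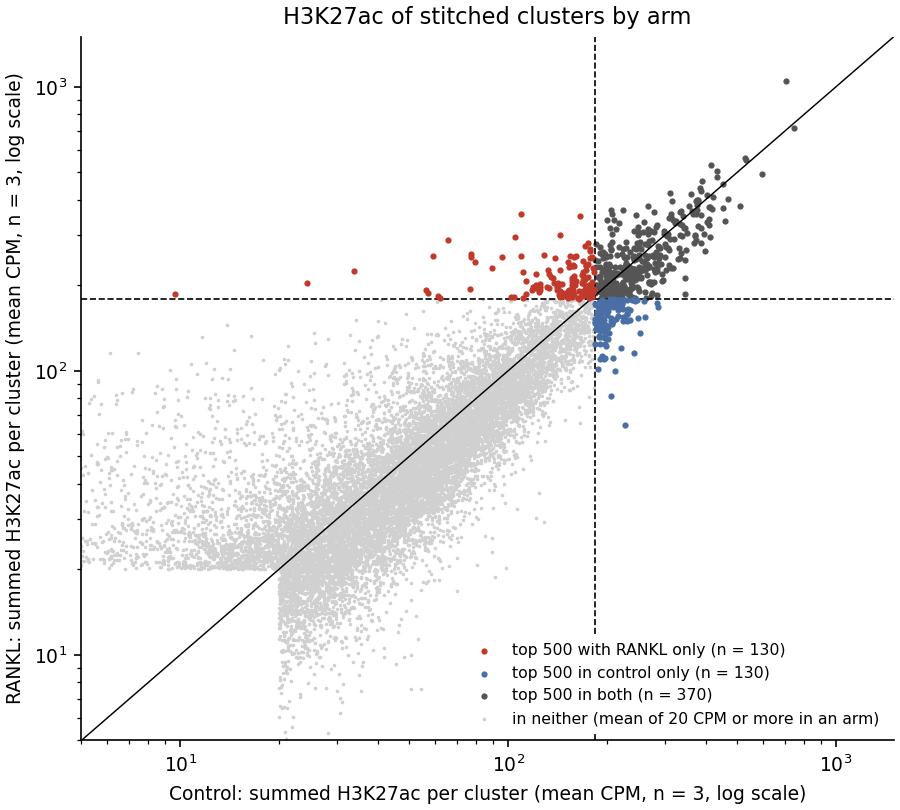
Summed H3K27ac of stitched clusters with a mean of at least 20 CPM in a group, control mean on the x axis and RANKL mean on the y axis (CPM, both log scales, n = 3 libraries each), with dashed lines at the level of rank 500 and a solid line where both are equal. The 130 RANKL-only clusters fill the upper left corner, most of them next to the vertical line, and a few lie far to the left, the farthest at 9.67 CPM in control.

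At the edges of the rule the classes run into each other. Membership also depended on the stitching: with gaps of up to 5 kb, 204 clusters met the rule and 12.8% of the 579 member regions were among them. By RANKL rank, the clusters at Fosl2 (rank 499, 179.4 CPM) and Mettl23 (rank 500, 179.3 CPM) were inside the top 500 and those at Abcd3 (rank 501, 179.3 CPM) and Fam187b (rank 502, 179.0 CPM) were outside. The lowest-ranked member clusters were those at Clec2d (rank 496), with 180 CPM with RANKL and 111 CPM in control, and Tonsl (rank 498), with 179 CPM with RANKL and 165 CPM in control. By control rank, the clusters at Fam118a (rank 499, 184.0 CPM) and Pdxdc1 (rank 500, 183.8 CPM) were inside, and that at Ttc7b (rank 501, 183.7 CPM) was outside. Among the members just past that limit was the cluster at Kmt5a (rank 505), with 222 CPM with RANKL and 183 CPM in control.

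All 3 RANKL libraries were above all 3 control libraries in 118 of the 130 clusters, where 27.5% of all clusters and 29.5% of all clusters with 2 or more regions were separated in this way. The 12 clusters that overlapped had ratios of 1.01 to 1.21. The same separation was found in 89 of the 370 clusters strong in both groups. Since the rule used these values, nothing is read from the difference. Taken library by library, the median over the 130 clusters was 207, 204 and 197 CPM in RANKL experiments 1 to 3, against 155, 149 and 154 CPM in control experiments 1 to 3. The libraries of a group lay close to each other at the cluster level.

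The clusters were checked against libraries that did not choose them. With the rule applied to 2 experiments, 132 or 133 clusters were chosen, and the remaining experiment was then read. The level was higher with RANKL in 127 of 133 clusters in experiment 1, in 132 of 133 in experiment 2 and in 121 of 132 in experiment 3. The share of all clusters that were higher with RANKL in each held-out experiment was not computed, so these counts have no background beside them. The held-out median log2 ratio was 0.47, 0.51 and 0.46 in experiments 1 to 3, against 0.49, 0.46 and 0.46 in the experiments that chose the clusters. From the means of all 6 libraries, the median log2 ratio was 0.20 over all clusters and 0.026 over clusters of 2 or more regions. In the held-out experiment alone, 78.2%, 79.7% and 83.3% of the chosen clusters were again in the RANKL top 500 and outside the control top 500. The held-out experiments have 1 RANKL and 1 control library each, and no test was made.

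**Figure D2:**
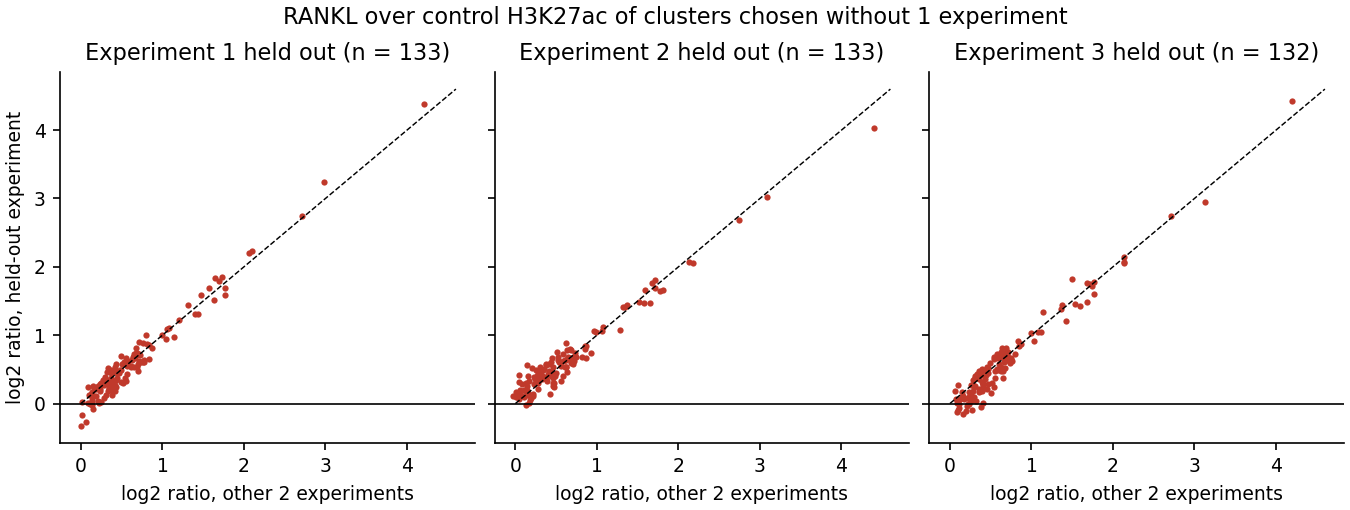
Log2 ratio of RANKL over control H3K27ac for clusters chosen on 2 experiments (x axis) and in the experiment held out (y axis), 1 point per cluster and 1 panel per held-out experiment, with a dashed line of equality. Points follow the dashed line in all 3 panels. In the held-out experiment 6, 1 and 11 clusters (experiments 1 to 3) are at or below 0. These clusters had log2 ratios of at most 0.38 in the experiments that chose them.

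The member clusters were larger than most stitched clusters and smaller than those strong in both groups. They held a median of 4 regions (range 1 to 12) and spanned a median of 27364 bp, with a range of 2000 to 100139 bp, against 6 regions and 44353 bp for clusters strong in both groups, 2 regions and 14180 bp for all clusters of 2 or more regions and 1 region and 2000 bp for all clusters. Of the 579 member regions, 25.4% lay within 2 kb of an end of a protein-coding gene, 45.1% elsewhere inside a gene and 29.5% between genes. A gene end is here either end of the gene's span, so the start of a gene counts as one. Gene ends made up 38.5% of regions in clusters strong in both groups, 42.6% in control-only clusters and 24.5% of all regions, so the members' share was close to that of all regions. The median log2 ratio of a member region was 0.22 at gene ends, 0.51 inside genes and 0.54 between genes. Over all regions the order was the same, with medians of -0.20 at gene ends, 0.24 inside genes and 0.31 between genes. Members lay on 19 chromosomes and not on the X chromosome, and 15 of the 130 (11.5%) were on chromosome 19, which also held 11.6% of the clusters strong in both groups and 3.53% of all regions.

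Within a cluster the regions did not move alike. By edgeR's quasi-likelihood test over all regions (adjusted p under 0.05), 290 of the 579 member regions were called higher with RANKL (50.1%, where 14.8% of the 54765 regions tested were) and 57 were called lower (9.84%, where 21.0% were), with 232 not called. These counts describe the clusters and are not support for them, since the rule used the same libraries. In 18 clusters every region was called higher, in 43 clusters at least 1 region was called higher and at least 1 lower, and in 11 clusters no region was called higher. The region with the largest gain held a median of 70.8% of its cluster's gain in CPM, and more than 50% of it in 98 clusters. In 31 clusters its gain was larger than that of the whole cluster, because other regions lost signal. That region had a median of 81.6 CPM with RANKL, against 36.5 CPM in control, and it was also the strongest region of its cluster in 89 cases.

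The clusters below are those with the highest RANKL level, the highest ratio or the most ONECUT2 sites, together with those at genes of several lists (pathways, cell types and marker genes). A cluster is called by the protein-coding gene whose span it overlaps most, or by the nearest within 100 kb. Of the 130, 115 overlapped a protein-coding gene, 11 had one within 100 kb and 4 had none, and the gene named need not be the gene the cluster acts on. RNA was not measured in these libraries.

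The highest ratio was at Ccdc33 and Stra6 (chr9:58101320-58117258). Stra6 encodes the receptor through which cells take up vitamin A from retinol-binding protein, and Ccdc33 encodes a coiled-coil protein. The cluster had 191, 189 and 177 CPM in RANKL experiments 1 to 3, against 9.20, 11.6 and 8.25 CPM in control experiments 1 to 3, a ratio of 19.2. Its control rank was 17129, the lowest in control of the 130 clusters. Both of its regions were called higher, and the one inside Ccdc33 gained most, with 130 ± 11.7 CPM with RANKL and 4.17 ± 1.43 CPM in control. The other, at a gene end, had 55.8 ± 6.00 CPM with RANKL and 5.50 ± 0.294 CPM in control.

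The cluster at Ptprr (chr10:116098980-116117209), a receptor-type tyrosine phosphatase that dephosphorylates MAP kinases, had 215, 199 and 197 CPM with RANKL and 22.8, 24.5 and 25.6 CPM in control, a ratio of 8.38. All 3 of its regions were called higher. The largest gain was at chr10:116103132-116105132, with 94.8 ± 4.86 CPM with RANKL and 4.87 ± 0.567 CPM in control, and this region also overlaps a listed ONECUT2 site.

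The cluster inside Cd247 (chr1:165835552-165859607), the gene of the CD3 zeta subunit of the T cell receptor, had 227, 223 and 221 CPM with RANKL and 34.0, 34.7 and 33.0 CPM in control, a ratio of 6.60. Most of its gain came from 2 neighbouring regions. The stronger, chr1:165843556-165845556, had 110 ± 3.70 CPM with RANKL and 10.6 ± 1.22 CPM in control, while the region at the far end had 8.23 ± 0.479 CPM with RANKL and 5.57 ± 0.538 CPM in control and was not called. Since Cd247 is known from T cells, leukocyte markers are given beside it: their summed level was 190 to 191 CPM with RANKL and 178 to 186 CPM in control. Of the 11 leukocyte markers, 8 had a region. Among the T cell genes no region lay at Cd3e and Cd8a, while the cluster at Cd4 had 11.0 ± 2.70 CPM with RANKL and 10.3 ± 1.62 CPM in control. Taking the strongest cluster of each leukocyte gene, the 8 ratios ran from 0.605 to 1.80, with a median of 1.06. In 1 of the 8, Csf1r, all RANKL libraries were above all control libraries. It had 12.8 ± 1.93 CPM with RANKL and 7.08 ± 1.01 CPM in control. The strongest of the 8 were far above these levels in both groups. Cd52 had 240 ± 4.78 CPM with RANKL and 229 ± 7.64 CPM in control. Cd68 had 222 ± 6.14 CPM with RANKL and 245 ± 9.05 CPM in control. Cd14 had 175 ± 4.54 CPM with RANKL and 176 ± 5.74 CPM in control. A cluster can span neighbouring genes, so its level is not comparable with the summed level of a list. The summed level of 11 epithelial markers was 1082 to 1133 CPM with RANKL and 1337 to 1465 CPM in control, that of mesenchymal markers was 57.2 to 84.9 CPM with RANKL and 64.4 to 75.5 CPM in control, and that of endothelial markers 290 to 304 CPM with RANKL and 299 to 308 CPM in control. A region lay at 10 of the 12 mesenchymal genes (not at Col1a2 and Lum) and at 8 of the 10 endothelial genes (not at Kdr and Tie1). The cluster at the mesenchymal marker Pdgfrb, named after its values were seen, had 59.9 ± 3.55 CPM with RANKL and 11.5 ± 2.10 CPM in control, with no overlap between the groups. Its ratio of 5.20 was the highest of the 9 mesenchymal genes that a cluster overlapped. Their ratios started at 0.597, with a median of 0.931, and 4 of the 9 were above 1. By summed level, the epithelial genes thus carried several times the signal of each other list in every library, as the organoid label says. Single clusters at leukocyte genes were as strong as some epithelial ones, and the part of other cells in the result was not tested.

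Genes of cell adhesion and the cytoskeleton are described next. Tns3 encodes tensin 3, which links integrins to actin at focal adhesions, and its cluster (chr11:8609703-8642942) was the strongest of all members, at rank 38 with RANKL and rank 1789 in control. It had 348, 370 and 355 CPM with RANKL, against 116, 109 and 105 CPM in control, a ratio of 3.26. All 5 of its regions, which lie inside the gene, were called higher, led by chr11:8614606-8616606 with 138 ± 9.48 CPM with RANKL and 14.8 ± 0.907 CPM in control. A second member cluster lay in the same gene, so Tns3 was reached by 2 of the 130.

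Itgav encodes the integrin subunit αV. Its cluster (chr2:83689675-83735066) had 260, 255 and 248 CPM with RANKL and 56.7, 60.9 and 59.5 CPM in control, a ratio of 4.31. All 6 regions were called higher, and they differed widely. The region at the gene's promoter had the smallest ratio of the 6, with 60.5 ± 4.05 CPM with RANKL and 35.7 ± 0.855 CPM in control. Between genes, the region at chr2:83699847-83701847 had 96.8 ± 6.42 CPM with RANKL and 6.67 ± 1.30 CPM in control, and that at chr2:83689675-83691675 had 48.0 ± 5.16 CPM with RANKL and 1.91 ± 0.714 CPM in control. Itgb6, which encodes the β6 subunit that pairs with αV, also had a member cluster, with 180 ± 14.9 CPM with RANKL and 62.1 ± 1.70 CPM in control. Itgb6 was chosen after its values were seen.

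A cluster 25.6 kb from Cd47, which encodes a surface protein that restrains phagocytes through SIRPα, lay wholly between genes (chr16:49938094-49971752). It had 291, 285 and 292 CPM with RANKL and 62.2, 68.3 and 66.0 CPM in control, a ratio of 4.41. All 5 regions were called higher, the strongest with 96.4 ± 1.86 CPM with RANKL and 24.6 ± 2.50 CPM in control. The groups were apart in every region of this cluster.

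Tpm1, which encodes a tropomyosin that binds along actin filaments, had a cluster with 252 ± 5.74 CPM with RANKL and 77.2 ± 5.42 CPM in control. Sh3pxd2a encodes TKS5, a scaffold of podosomes, and its cluster of 7 regions had 297 ± 10.3 CPM with RANKL and 105 ± 8.46 CPM in control. Tspan8, a tetraspanin of the epithelial surface, had 252 ± 1.29 CPM with RANKL and 159 ± 2.42 CPM in control. Cxadr, a junctional adhesion protein that is also a virus receptor, lay 34.9 kb from a cluster with 282 ± 6.75 CPM with RANKL and 176 ± 6.75 CPM in control. At Cxadr the control level was close to the limit of the control top 500 (183.8 CPM). Of 22 listed junction and cytoskeleton genes, 1 was at a RANKL-only cluster, 7 were at clusters strong in both groups and 1 was at a control-only cluster.

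**Figure D3:**
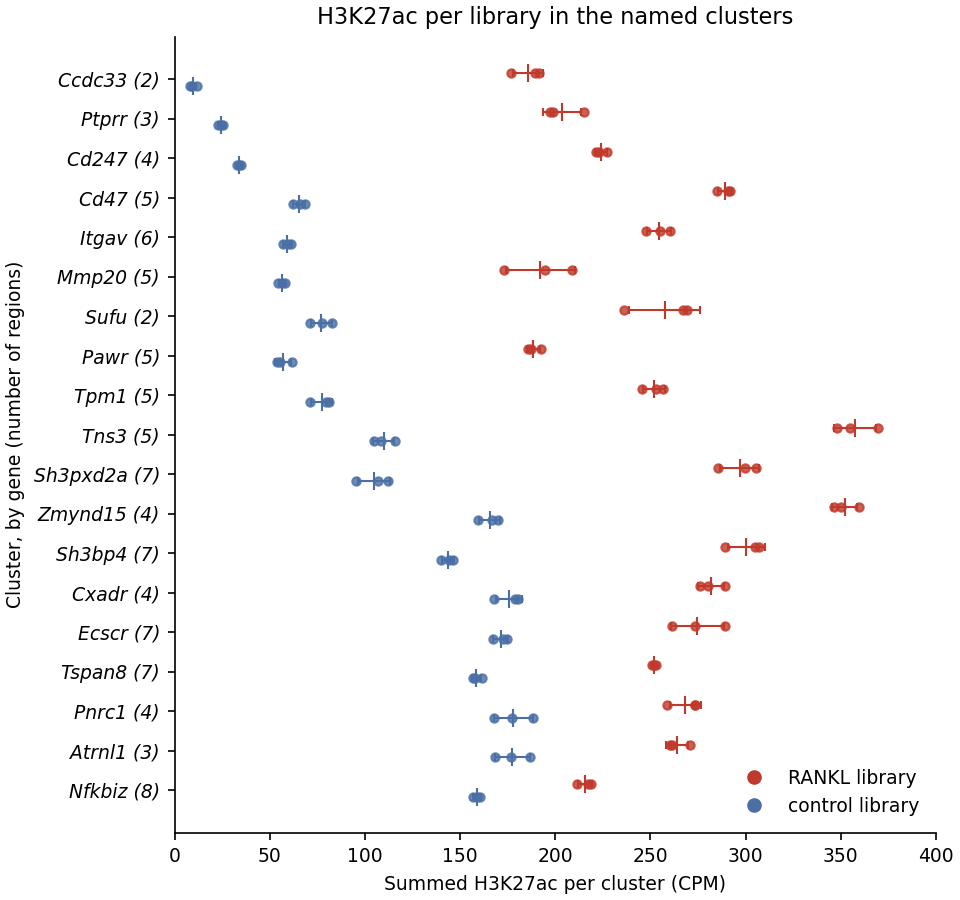
Summed H3K27ac per cluster in each library (x axis, CPM), 1 row per named cluster with its number of regions, ordered by ratio. Points are single libraries (RANKL in red, control in blue), tall ticks are means and horizontal bars are SD (n = 3); the RANKL and control points do not overlap in any row, and the ratio between them falls from Ccdc33 (19.2) at the top to Nfkbiz (1.36) at the bottom.

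Genes of signalling are described next. The cluster at Zmynd15 (chr11:70451247-70476283) also spans Cxcl16, which encodes a chemokine that attracts CXCR6-bearing lymphocytes, and Med11, a subunit of Mediator. It was second in level among the members, with 360, 347 and 350 CPM with RANKL and 167, 160 and 170 CPM in control. All 4 regions were called higher, and the one at chr11:70467124-70469124 changed most in proportion, with 65.2 ± 0.674 CPM with RANKL and 11.1 ± 0.568 CPM in control.

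Sufu encodes an inhibitor of Hedgehog signalling. Its cluster had 267, 269 and 236 CPM with RANKL and 82.8, 77.2 and 71.4 CPM in control, and 93.9% of the gain lay in the region at chr19:46483604-46485604, with 216 ± 14.3 CPM with RANKL and 47.0 ± 1.36 CPM in control. Sh3bp4, which acts in endocytosis, had 300 ± 9.85 CPM with RANKL and 144 ± 3.01 CPM in control. Pawr, a pro-apoptotic protein, lay 13.1 kb from a cluster with 188 ± 3.55 CPM with RANKL and 56.8 ± 4.14 CPM in control. The clusters at Pnrc1, a nuclear receptor coactivator, and at Atrnl1 and Ecscr were high in both groups. Pnrc1 had 268 ± 8.26 CPM with RANKL and 178 ± 10.2 CPM in control. Atrnl1 had 264 ± 5.76 CPM with RANKL and 177 ± 9.14 CPM in control. Ecscr, whose cluster also spans Sting1, had 275 ± 14.1 CPM with RANKL and 171 ± 3.78 CPM in control.

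Of 29 listed NF-κB pathway genes, 4 were at RANKL-only clusters, 5 at clusters strong in both groups (Nfkb2, Rela, Relb, Bcl3 and Traf2) and 0 at control-only clusters. Of all 21896 protein-coding genes, 192 were at RANKL-only clusters. Nfkbia encodes IκBα, which holds NF-κB in the cytoplasm and is itself induced by NF-κB. Its cluster (chr12:55486382-55492996) had 249, 252 and 226 CPM with RANKL and 77.3, 79.6 and 80.7 CPM in control, a ratio of 3.06, with both regions called higher. The clusters of the other 3 had ratios of 1.28 to 1.36. Nfkbiz, which encodes the nuclear protein IκBζ, had 219, 212 and 217 CPM with RANKL and 159, 161 and 157 CPM in control, and of its 8 regions only chr16:55837947-55839947 was called higher, with 58.2 ± 6.75 CPM with RANKL and 22.1 ± 1.01 CPM in control. Its strongest region had 88.5 ± 5.47 CPM with RANKL and 81.4 ± 0.790 CPM in control and was not called. Nfkbie, which encodes IκBε, had 218 ± 5.91 CPM with RANKL and 169 ± 6.12 CPM in control. Tnip1, which encodes a partner of the A20 deubiquitinase, had 188 ± 4.12 CPM with RANKL and 147 ± 5.00 CPM in control.

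**Figure D4:**
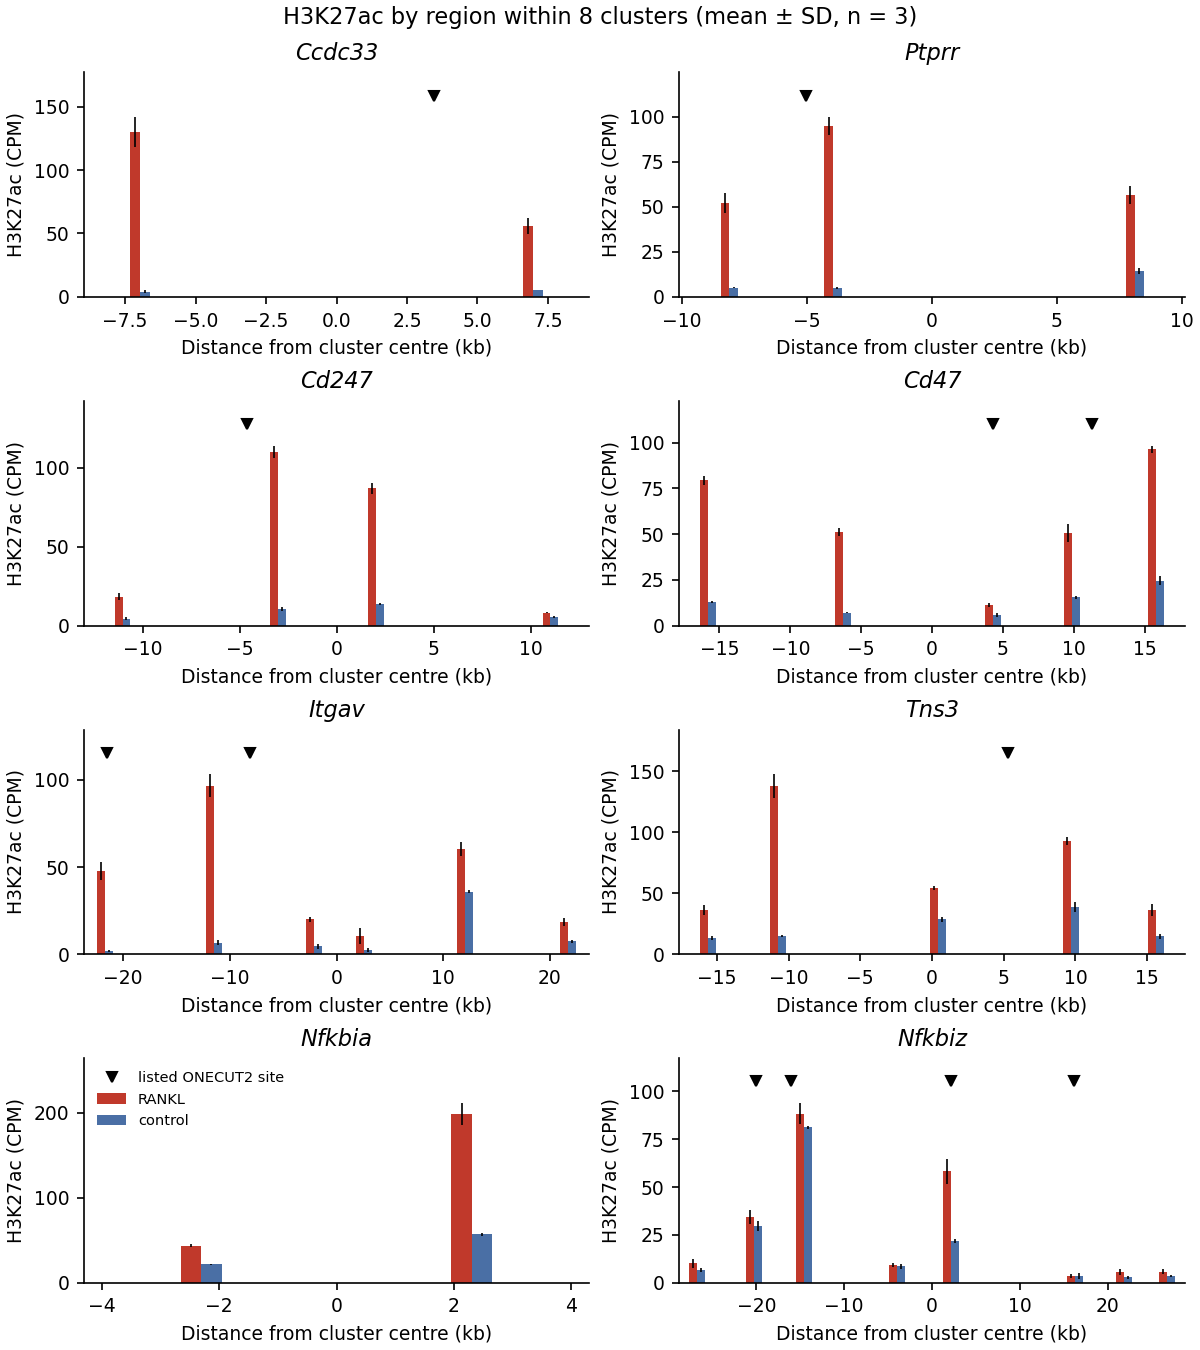
H3K27ac of each region (y axis, mean CPM ± SD, n = 3) by distance from the centre of its cluster (x axis, kb) in 8 clusters, with RANKL in red, control in blue and triangles at ONECUT2 sites of the authors' deposited table. At Cd47 and Itgav every region is higher with RANKL, while at Nfkbiz a single region carries most of the difference (58.2 CPM with RANKL and 22.1 CPM in control).

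Of 24 listed M cell genes, 0 were at RANKL-only clusters and 1, Relb, was at a cluster strong in both groups. The rule asks for a high sum, and clusters at M cell genes mostly had lower sums. Of the 24, 21 overlapped a cluster, and taking for each gene the strongest by the sum of both means, their median was 87.9 CPM with RANKL and 51.7 CPM in control. In 16 of these 21 all RANKL libraries were above all control libraries (27.5% of all clusters were), and their ratios ran from 0.839 to 8.27 with a median of 1.55. Anxa5, which encodes a phospholipid-binding annexin, and Tnfaip2, an M cell gene known for membrane nanotubes, were just outside the top 500 at ranks 539 and 540. The Anxa5 cluster had 175 ± 6.20 CPM with RANKL and 60.6 ± 8.60 CPM in control, and the Tnfaip2 cluster had 175 ± 11.7 CPM with RANKL and 131 ± 5.49 CPM in control. The cluster at Ccl9, an M cell chemokine, had 54.2 ± 4.15 CPM with RANKL and 6.56 ± 1.10 CPM in control, at rank 5481. These 3 genes were chosen after their values were seen, and a cluster can span neighbouring genes too.

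Among 32 intestinal transcription factors, 2 were at RANKL-only clusters, where 192 of 21896 protein-coding genes were. The cluster at Cdx1, a homeobox factor of intestinal identity, had 221, 200 and 197 CPM with RANKL and 176, 181 and 185 CPM in control, so the groups were close to each other. The factors Cdx2, Gata4 and Esrra were at clusters strong in both groups. Ppara was the nearest gene to another such cluster, while the cluster that overlaps Ppara itself was in neither top 500, with 69.8 ± 2.57 CPM with RANKL and 83.1 ± 6.45 CPM in control.

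Among 22 stem cell and Wnt target genes, 2 were at RANKL-only clusters, where 192 of 21896 protein-coding genes were. Another 2, Ephb2 and Lrig1, were at clusters strong in both groups, and 1, Msi1, was at a control-only cluster. Most genes of this list went the other way from the 2 described here. Taking the strongest cluster of each gene, the ratio was above 1 in 5 of 22. The median ratio was 0.765, with a range from 0.205 at Lgr5 to 3.00 at Cdk6. Cdk6, a kinase that drives entry into S phase with D-type cyclins, had 188, 188 and 176 CPM with RANKL and 66.1, 67.9 and 49.8 CPM in control, a ratio of 3.00, with all 4 regions called higher. Axin2, a Wnt target that feeds back to limit the pathway, had 235, 245 and 221 CPM with RANKL and 160, 157 and 158 CPM in control. Its regions moved in opposite directions. The region at chr11:108897270-108899270, between genes, had 103 ± 10.8 CPM with RANKL and 8.76 ± 1.61 CPM in control. Another, within 2 kb of a gene's start or of its other end, had 58.2 ± 3.67 CPM with RANKL and 70.9 ± 4.92 CPM in control and was called lower. Mmp7, the matrix metalloproteinase of Paneth cells and the only 1 of 20 secretory genes here, shared with Mmp20 a cluster that had 209, 173 and 195 CPM with RANKL and 58.0, 54.5 and 56.7 CPM in control.

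No RANKL-only cluster was at the 25 AP-1, NFAT and ETS factors (8 at clusters strong in both groups), the 25 brush border and transport genes (3 at such clusters), the 13 distal enterocyte genes (0), the 12 mesenchymal markers (0), the 10 endothelial markers (0) or the 11 leukocyte markers (2). Of the 11 defining epithelial markers, 9 were at clusters strong in both groups and 0 at RANKL-only clusters.

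The member clusters also hold the hairpins of 6 RefSeq miRNAs. Only miR-29a and miR-29b share a seed (bases 2 to 8, in capitals), and both lie in a cluster on chromosome 6 with no protein-coding gene within 100 kb, with 181 CPM with RANKL and 164 CPM in control. Their mature sequences are shown for that reason.

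miR-29a-3p: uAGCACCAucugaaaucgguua
miR-29b-3p: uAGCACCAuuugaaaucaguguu

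ONECUT2 binding is a separate readout, from another antibody and other libraries. The authors' deposited table lists 7268 sites with an adjusted p of up to 0.0496 between RANKL and control, and 7261 of them have a higher level with RANKL, so nearly any listed site is one that gained ONECUT2. A listed site lay within the span of 68 of the 130 RANKL-only clusters (52.3%, exact 95% binomial interval 43.4 to 61.1%, counting error only), against 185 of the 370 clusters strong in both groups (50.0%), 50 of the 130 control-only clusters (38.5%), 20.3% of all clusters of 2 or more regions and 9.26% of all clusters. The classes differ in span. Per 100 kb of span the RANKL-only clusters held 2.24 sites, the clusters strong in both groups 1.55, the control-only clusters 1.32 and all clusters 1.49. With stitching gaps of up to 5 kb, 19.1% of RANKL-only clusters held a site. No test of enrichment was made.

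At the 94 sites inside RANKL-only clusters the log2 fold change of the authors' deposited table had a median of 1.99, with quartiles of 1.57 and 2.50. It was 1.70 at the 274 sites in clusters strong in both groups, 1.61 at the 64 sites in control-only clusters and 1.86 over all listed sites, again by the authors' deposited table. In the authors' deposited table, the median normalised read count at the 94 sites was 34.0 with RANKL and 8.09 in control. That table has no values per library, so none of these differences has an error. By number of sites, 62 clusters held none, 46 held 1, 19 held 2, and Nfkbiz held 4, the most of any. Whether sites were shared unevenly among the clusters was not tested.

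**Figure D5:**
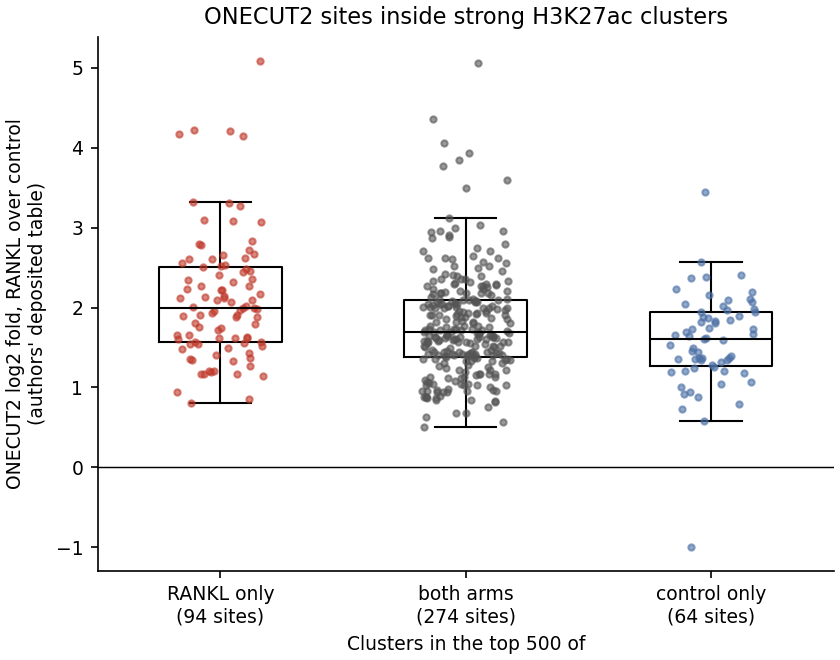
Log2 fold change of ONECUT2, RANKL over control, at listed sites (y axis, authors' deposited table) by the class of the H3K27ac cluster around them (x axis). Points are sites, boxes span the quartiles with the median as a line and whiskers reach values within 1.5 times the box height; medians were 1.99, 1.70 and 1.61 from left to right, and the boxes overlap.

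The largest ONECUT2 folds were at clusters described above. The 5 largest folds inside RANKL-only clusters in the authors' deposited table were at Itgav, Ccdc33, Cd247, Mmp20 and Zmynd15. At Itgav the site chr2:83690638-83691038 had 102 normalised reads with RANKL and 2.25 in control, a log2 fold of 5.08 with a DiffBind adjusted p of 1.03e-18 in the authors' deposited table. At Ccdc33 the site had 43.6 normalised reads with RANKL and 1.56 in control in the authors' deposited table. The Itgav site lies in the region that had 48.0 ± 5.16 CPM of H3K27ac with RANKL and 1.91 ± 0.714 CPM in control, and the Ccdc33 site lies between the 2 acetylated regions of its cluster.

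Grouped by H3K27ac ratio, 15 of 38 clusters below 1.25 had a listed site (39.5%), 22 of 40 from 1.25 to 1.5 (55.0%), 18 of 31 from 1.5 to 2 (58.1%) and 13 of 21 at 2 or more (61.9%). The median log2 fold of those sites in the authors' deposited table was 1.63, 1.91, 2.23 and 2.95 in the same order, and the groups held 1.88, 2.21, 2.23 and 2.97 sites per 100 kb of span. As a description over the 130 clusters, which share the same libraries, Spearman's rho between the log2 H3K27ac ratio and sites per 100 kb of span was 0.167. Both the density of sites and their fold were higher in each successive group, and neither was tested. Only sites that differed between RANKL and control are listed, nearly all of them higher with RANKL. Sites bound without change are therefore missing from both measures.

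Few member regions held a site, although 53 of the 94 sites overlapped a region. Of the 579 member regions, 52 overlapped a listed site by at least 1 bp (8.98%), against 6.82% in clusters strong in both groups, 5.63% in control-only clusters and 5.32% of all regions. The region with the largest gain overlapped a site in 14 of 130 clusters (10.8%), and the other regions did so in 38 of 449 cases (8.46%). Member regions with a site were called higher in 33 of 52 cases (63.5%) and those without in 257 of 527 (48.8%). Over all regions, 22.6% of those with a site and 14.3% of those without were called higher, so the difference in calls was not limited to the members. The ratios did not differ in the same way. Over all regions the median log2 ratio was 0.127 with a site and 0.160 without, and in member regions it was 0.523 and 0.449. Regions with a site also had more signal over all regions, with a median of 19.8 CPM with RANKL, against 9.29 CPM without a site. Whether the level of signal shaped the calls was not tested. Among the promoter windows above, 2 of 101 (1.98%), at Hbp1 and Borcs6, overlapped a listed site, against 2.67% of windows inside any region.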

How the data were processed

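Small intestinal organoids were profiled by ChIPmentation for H3K27ac and ONECUT2. The authors' deposited H3K27ac table holds raw read counts in 55050 regions of 2000 bp (build mm10, per the submitters' processing notes), not normalised, with 2745451 to 3902301 reads per RANKL library and 5434172 to 9160267 per control library. Their ONECUT2 table, a DiffBind comparison according to the submitters' processing notes, gives log2 mean reads per group and a log2 fold change in the deposited file, with p-values and adjusted p-values by the authors. The sources used here do not give the aligner, peak caller or duplicate handling. Input libraries, a table of scaled values and ONECUT2 values per library were not analysed here. Whether region starts count from 0 is not stated, and coordinates are printed as deposited.

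Counts were divided by library totals, stitched, summed and ranked as described (Python 3.11.15, pandas 2.3.3). Regions were tested with edgeR 4.0.16 (quasi-likelihood, TMM, filterByExpr, Benjamini-Hochberg, adjusted p under 0.05), after the script was tested on simulated data. Libraries of a group differed beyond sampling noise (chi-square per degree of freedom 1.79 to 2.06). The description label of each library gives the number of its differentiation experiment, so RANKL and control libraries are paired by number, although deviations of same-numbered libraries from their group means were nearly uncorrelated (r = 0.0142, -0.0267 and -0.00732). The fit without this block is reported and the blocked fit is an alternative. Gene spans, promoters and miRNAs came from RefSeq (GRCm38.p6). Clusters were named by a rule: the 10 highest by RANKL mean, the 10 highest by ratio, the 5 with most ONECUT2 sites, up to 3 per gene list, and 2 on each side of each rank limit. A few genes outside it are marked in the text. The clusters and gene lists were chosen with earlier results of these data known. Alternatives changed the stitching gap, the rank limit, the scaling, the regions stitched, the libraries used, the overlap rule and the test. Some named genes are not reported here.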

Additional observations from a re-analysis of the deposited data

How the results depend on the processing

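Which clusters are members depended on the stitching and on the rank limit, and much less on the libraries. With a gap of 5 kb, 204 clusters with 342 regions were chosen, only 12.8% of the member regions were among them, and 19.1% of the clusters held a listed ONECUT2 site. A gap of 20 kb kept 28.5% of the member regions and gave a site share of 66.1%. A limit of the top 1000 gave 230 clusters, kept 31.4% of the member regions and gave a site share of 37.0%, and the top 300 kept 38.9%. With regions within 2 kb of a gene end left out before stitching, 21.4% were kept and the site share was 35.6%. The site share was 36.9% where a site had to overlap a region of the cluster and 62.3% where its centre could lie within the stitching gap of the cluster. The 4 overlap rules tried compared RANKL-only clusters with clusters strong in both groups and control-only clusters, at the 12500 bp gap and top 500. Under each rule, both the share and the median fold of the authors' deposited table were highest in RANKL-only clusters. The rules share sites, so they are not independent checks. The classes were not compared at other gaps or rank limits, or with gene ends left out. Their order there was not tested. TMM scaling kept 100% of the member regions and quantile scaling 90.0%, while TMM lowered the median log2 ratio of the clusters to 0.37, left 7 clusters not above control and moved most of the 16 of 152 values of named clusters that moved beyond their spread, with 0 reversed.

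Leaving out each library in turn gave 129 to 133 clusters, 569 to 607 regions and site shares of 50.0 to 53.4%, and kept 94.8 to 98.1% of the member regions. Without a library, 260 to 277 of the member regions were called higher. With the replicate block, 283 were called higher and 53 lower (7708 and 11095 of all regions), and no count of calls moved by more than 1.5 times. DESeq2 called 259 higher and 44 lower, and edgeR without TMM factors called 323 higher and 45 lower. The lower read totals of the RANKL libraries limit what can be seen in weak regions.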

Other observations

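Some RANKL-only clusters outside the naming rule also had ratios of at least 2, and they were chosen after their values were seen. Ablim1, which encodes an actin-binding LIM protein, had 231 ± 8.09 CPM with RANKL and 89.2 ± 1.63 CPM in control (mean ± SD, n = 3 each, here and below). Extl1, which encodes a glycosyltransferase of the exostosin family, had 251 ± 4.91 CPM with RANKL and 95.7 ± 4.58 CPM in control. A cluster of 5 regions at chr4:89420861-89452943, with no protein-coding gene within 100 kb, had 254 ± 16.0 CPM with RANKL and 110 ± 3.66 CPM in control. All 3 RANKL libraries were above all 3 control libraries in each of these 3 clusters.

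The cluster at Tm4sf5, which encodes a tetraspan membrane protein, had 213 ± 4.61 CPM with RANKL and 137 ± 12.3 CPM in control, and its regions differed. The region at chr11:70513014-70515014 had 77.9 ± 5.77 CPM with RANKL and 8.65 ± 1.39 CPM in control, while its neighbour at chr11:70504187-70506187 had 63.2 ± 3.04 CPM with RANKL and 70.2 ± 6.04 CPM in control and was not called.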
